A study of Mus musculus with 6 samples.

Results

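The ubiquitin-specific proteases (USPs) are the largest family of deubiquitinating enzymes, and their transcripts were measured in kidneys of newborn mice labelled as Usp10 knockout or wild type. Members were all genes named Usp with a number, with or without 1 letter, apart from Usp10 itself, Usp18 and Usp9y; Usp6nl does not meet that rule. A RefSeq table listed 47 such genes, all 47 had a probe on the array, and 41 of them entered the test, out of 21203 genes tested in all. The design compares 3 USP10 KO neonates with 3 USP10 WT neonates, 1 kidney RNA sample and 1 single-colour Agilent array for each, taken at 6 h after birth and all labelled male. Allele, strain, litter and any Cre driver are not given in the sources used here. Levels are log2 intensities relative to the 75th percentile of the same array, so that 0 means as bright as that percentile. They can be compared between arrays for 1 probe, and not between probes.

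USPs are cysteine proteases that cut ubiquitin from proteins, which spares some targets from the proteasome and alters the place or activity of others. Members act on defined partners: some free ubiquitin at the proteasome, some edit histones, some sit on endosomes or mitochondria, and several act on p53 or on its ligase Mdm2. Usp10, the gene named in the genotype, deubiquitinates p53 and binds the stress granule proteins G3bp1 and G3bp2. Usp2 is known in kidney for opposing the ubiquitin ligase Nedd4-2 at the epithelial sodium channel, and as a transcript that follows the circadian clock.

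The promoter of Usp2 is printed because Usp2 differed most between the genotypes, and because its transcript is known to respond to clock and hormone signals. It lies on chromosome 9 of GRCm38.p6, plus strand, at chr9:44084670-44084969, from 250 bases before to 50 bases after the start of the gene in RefSeq. The capitals mark the core of a cAMP response element, TGACGT.
Usp2 promoter: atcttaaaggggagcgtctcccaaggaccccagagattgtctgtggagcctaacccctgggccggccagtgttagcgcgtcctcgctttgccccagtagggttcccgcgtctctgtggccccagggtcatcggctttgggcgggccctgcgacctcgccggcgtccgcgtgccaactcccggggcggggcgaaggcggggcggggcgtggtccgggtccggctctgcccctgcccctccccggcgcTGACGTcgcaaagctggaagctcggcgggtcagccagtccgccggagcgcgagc
The stretch has 71.7% G and C, and the marked match begins 4 bases before the gene's start. Read on both strands, it holds no E-box (CACGTG), no D-box (TTATGTAA) and no full glucocorticoid response element (searched as its palindromic consensus). Of all 32851 promoters of the same length, 7.51% hold TGACGT, 7.15% the E-box, 0.938% the D-box and 0.00913% the full glucocorticoid element. Promoters were given for 36 members. TGACGT occurs in 7 of them (Usp2, Usp8, Usp11, Usp29, Usp36, Usp38 and Usp54) and the E-box in 4 (Usp4, Usp16, Usp31 and Usp32), while neither the D-box nor the glucocorticoid element occurs in any. TGACGT was added to the search after the sequence had been read.

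The targeted gene was checked first. The single Usp10 probe read 3.64, 3.37 and 3.56 on the KO arrays, against 3.01, 3.13 and 2.95 on the WT arrays. The groups did not overlap and the arrays labelled KO were the higher ones, by 0.49 ± 0.16 (log2, SE; adjusted p = 0.416, limma). The probe may lie outside the deleted part, in which case it checks nothing, and the groups are named below as labelled. Sex-linked transcripts did not match the label on every array: the Y-linked Eif2s3y read 1.98, 2.65 and 2.24 on the KO arrays, against 1.14, -8.11 and 1.83 on the WT arrays, and the brighter probe of Xist, made from the inactive X, was above background on WT1 (-0.62) and WT2 (0.43) and on no other array. WT2 lacked Y-linked signal and WT1 carried both kinds. The headers give 2 scan times. KO1, KO2, WT2 and WT3 belong to scan 1, and KO3 and WT1 to scan 2, so each scan holds both genotypes. Per array, 64.4% to 73.9% of 43020 spots exceeded background clearly and none was saturated. KO2 had more of its signal, 39.1%, in its top 1% of spots than any other array (29.4% to 31.9%). Markers of kidney epithelium, podocytes, proximal tubule and of the loop of Henle and distal tubule were above background on all 6 arrays.

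No member passed an adjusted p of 0.05 in the comparison of KO with WT kidneys (0 of 41, limma, Benjamini-Hochberg over all genes), where 0.0802% of all genes tested did, 17 of 21203 (0.0189% higher, 0.0613% lower). At an adjusted p of 0.1 it was 1 member, Usp2, and 0.382% of all genes. At an unadjusted p of 0.05, 5 of 41 members passed (12.2%), 3 higher and 2 lower in KO kidneys, against 10.4% of all genes (6.16% higher, 4.24% lower). Higher genes made up 59.3% of those passing, but 80.9% after normexp correction at the same scaling and 47.6% after normexp with quantiles. At the adjusted threshold the share was 23.5%, and 44.4% after normexp at the same scaling. Leaving out 1 array gave 2 to 5 such members: 2 without WT3, 5 without WT2, and 3 without any one of the others. The groups did not overlap for 9 members (22.0%), 6 of them higher and 3 lower in KO kidneys. Among all genes the share was 18.2%, with 10.1% higher and 8.09% lower. The difference, KO minus WT, was positive for 23 members (56.1%) and negative for 18, where 53.3% of all genes were positive. Its median was 0.05 on the log2 scale, against 0.03 for all genes. The sign of this small median depended on the scaling, since it was -0.0147 with quantile normalisation (19 positive, 22 negative), -0.0306 with normexp and quantile normalisation, and 0.0910 with normexp at the reported scaling (25 positive, 16 negative). The median size without regard to sign was 0.20 for the members and 0.22 for all genes. Differences lay within 0.25 of 0 for 28 members and within 0.5 for 36, and ranged from -0.62 (Usp39) to 1.35 (Usp2). Apart from Usp2, Usp53, Usp8, Usp51 and Usp39, every tested member thus lay within 0.5 of 0. In bulk tissue, fewer cells of a type and less RNA per cell cannot be told apart, which applies to each value below.

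**Figure D1:**
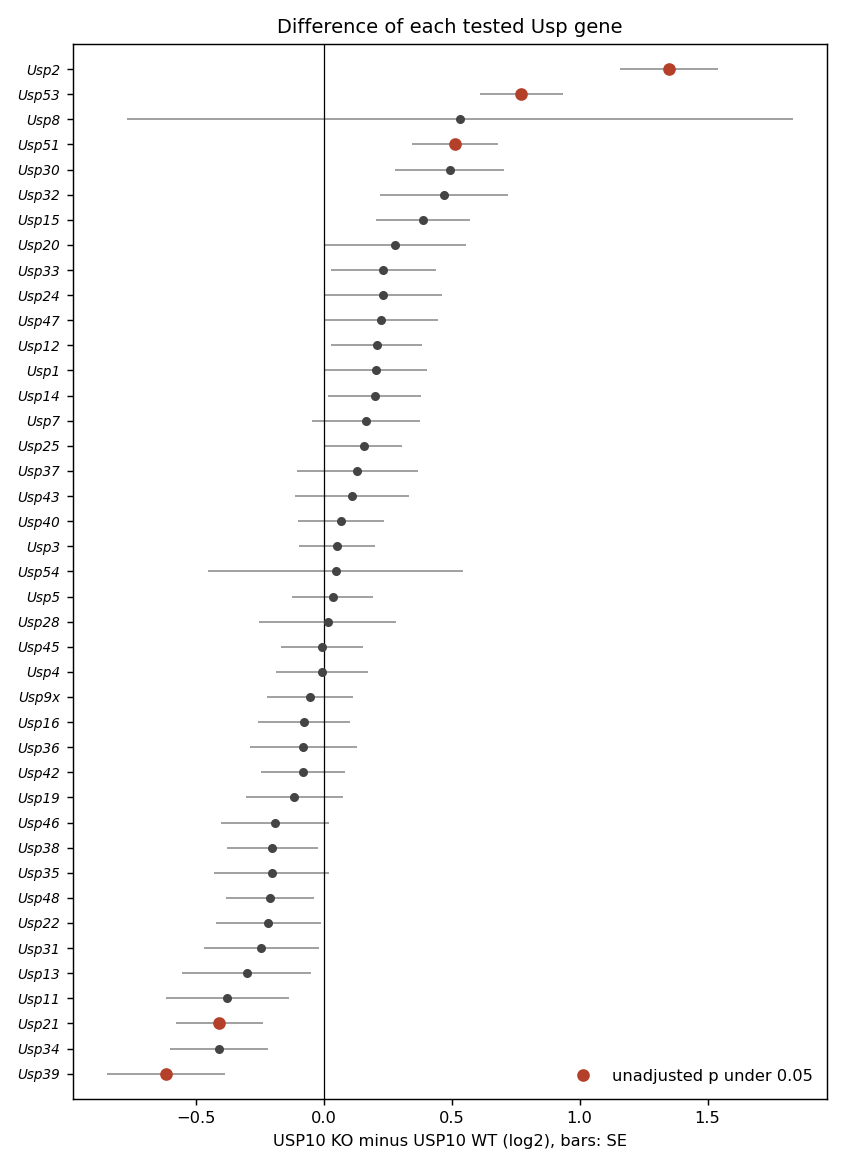
Difference of each of the 41 tested Usp genes between USP10 KO and USP10 WT kidneys on the log2 scale, ordered by size, with bars for the standard error of the limma fit and red points for an unadjusted p under 0.05. Usp2 stands at 1.35 and Usp53 at 0.77, 36 genes lie within 0.5 of 0, and the widest bars are those of Usp8 (1.30) and Usp54 (0.50).

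Usp2 encodes the protease that stabilises cyclin D1, Mdm2 and fatty acid synthase, and its transcript had the largest difference of the family. Its single probe, on chromosome 9, read 2.96, 3.24 and 2.91 on the KO arrays, against 1.57, 1.97 and 1.52 on the WT arrays. Every KO kidney was above every WT kidney, and a gap of 0.94 on the log2 scale separated the lowest KO kidney from the highest WT kidney. The means were 3.04 ± 0.17 in KO kidneys and 1.69 ± 0.25 in WT kidneys (SD, n = 3 each), a difference of 1.35 ± 0.19 (log2, SE; 95% confidence interval 0.90 to 1.80) or 2.55-fold. The unadjusted p was 0.000168 and the adjusted p 0.0774 (limma), which placed Usp2 at rank 46 of all genes and at rank 15 of those higher in KO kidneys. The exact two-sided permutation p was 0.1, the smallest that 3 arrays against 3 can give. The difference was 1.35 within scan 1 and 1.34 within scan 2. With scan as a block the adjusted p was 0.0497, and Usp2 was then the 1 member called, among 0.292% of all genes (0.123% called higher). Without WT2, the array that lacked Y-linked signal, the difference was 1.49 with an adjusted p of 0.248 (limma), and 0.165 with scan as a block. Against WT3 alone, the 1 WT array whose sex-linked transcripts match its label, it was 1.52. That fit has 1 WT array, which is assumed to vary like the KO arrays, so the adjusted p of 0.516 says little about how firm the difference is. Other settings put it past the threshold as well: the adjusted p was 0.0419 with an intensity trend and robust variance, where 0.212% of all genes were called. It was 0.0498, at a difference of 1.23, with normexp background correction (0.127% called), and 0.0168 with scan block and trend together (0.561% called).

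**Figure D2:**
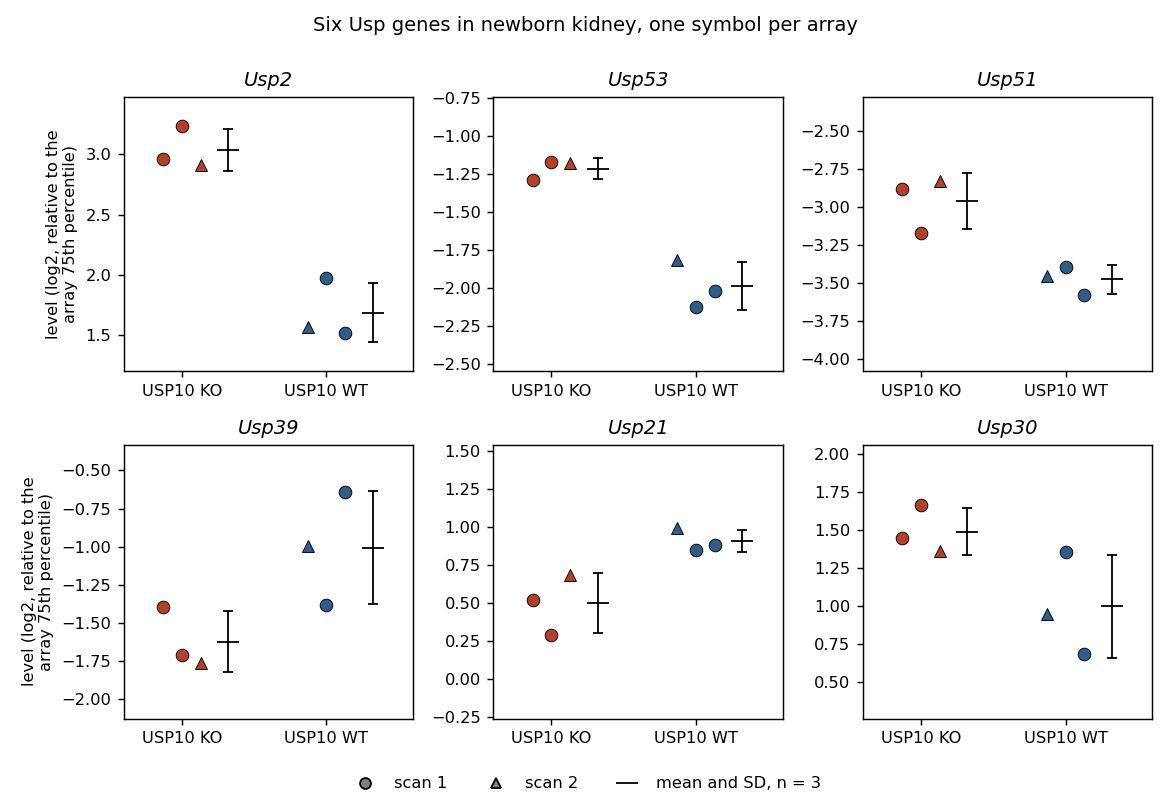
Level of 6 Usp genes on each array (log2, relative to the 75th percentile of that array), with USP10 KO left of USP10 WT, circles for scan 1, triangles for scan 2, and the mean and SD of 3 arrays beside each group. Usp2, Usp53, Usp51 and Usp30 lie higher on every KO array than on any WT array and Usp39 and Usp21 lower, with the widest gap in Usp2 (2.91 to 3.24 in KO kidneys, 1.52 to 1.97 in WT kidneys).

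Besides Usp2, 4 members passed the unadjusted threshold: Usp53, Usp51, Usp39 and Usp21. Usp53, a protein of tight junctions in other epithelia, read -1.29, -1.17 and -1.18 on the KO arrays, against -1.82, -2.12 and -2.02 on the WT arrays. The KO kidneys were close together and all higher, by 0.77 ± 0.16 or 1.71-fold (adjusted p = 0.219, limma). Usp51, an X-linked protease of histone H2A, read -2.89, -3.17 and -2.83 on the KO arrays, against -3.45, -3.39 and -3.58 on the WT arrays, again without overlap, a difference of 0.51 ± 0.17 (adjusted p = 0.423, limma). Its dimmer probe gave 0.29 with overlapping groups, and normexp with quantile normalisation lowered the difference of the brighter probe to 0.22. Usp39 lacks protease activity and is part of the spliceosome. It read -1.39, -1.71 and -1.76 on the KO arrays, against -0.997, -1.38 and -0.64 on the WT arrays, with every KO kidney lower, though KO1 and WT2 lay almost at the same level. Its difference was -0.62 ± 0.23 (adjusted p = 0.446, limma), and -0.98 against WT3 alone or -0.41 with normexp and the 75th percentile. Usp21, which removes ubiquitin from histone H2A, read 0.52, 0.29 and 0.68 on the KO arrays, against 0.99, 0.85 and 0.88 on the WT arrays. All KO kidneys were lower, a difference of -0.41 ± 0.17 on the log2 scale (adjusted p = 0.475, limma).

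The next 5 members by p did not pass the unadjusted threshold, and in 3 of them the groups still did not overlap. With scan as a block 2 of the 5 did pass it, Usp30 and Usp34 (unadjusted p = 0.0469 and 0.0391, limma), which made 7 members, 4 higher and 3 lower, where 17.7% of all genes passed (10.5% higher, 7.24% lower). Usp30, anchored in the outer mitochondrial membrane where it opposes parkin, read 1.45, 1.66 and 1.36 on the KO arrays, against 0.95, 1.36 and 0.69 on the WT arrays. KO3 and WT2 nearly met, and the difference was 0.49 ± 0.21 (adjusted p = 0.483, limma), or 0.80 against WT3 alone. Usp34, a regulator of axin in Wnt signalling, read -0.88, -0.95 and -1.13 on the KO arrays, against -0.75, -0.71 and -0.27 on the WT arrays. WT3 alone stood well above the KO arrays. The difference was -0.41 ± 0.19 (adjusted p = 0.497), and -0.25 without WT3 or -0.72 against it alone. Usp15, which acts on TGF-beta receptor complexes, read 2.31, 2.39 and 2.48 on the KO arrays, against 2.12, 2.19 and 1.72 on the WT arrays. Here too WT3 stood apart: the difference was 0.39 ± 0.18 (adjusted p = 0.502), and 0.24 without WT3 or 0.68 against it alone. Its dimmer probe gave 0.15 ± 0.15 with overlapping groups. Usp32, a membrane-associated protease of the endosomal system, read 2.39, 2.70 and 2.84 on the KO arrays, against 2.47, 2.36 and 1.70 on the WT arrays. Its groups overlapped, and the difference of 0.47 ± 0.25 was 0.23 without WT3 and 0.95 against WT3 alone. X-linked Usp11, a close relative of Usp4 and Usp15, read -1.70, -2.40 and -1.72 on the KO arrays, against -1.37, -1.78 and -1.55 on the WT arrays. KO2 was the lowest array, the groups overlapped, and the difference of -0.38 ± 0.24 was -0.15 without KO2 and -0.17 with normexp and the 75th percentile.

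The other 31 tested members had differences from -0.30 to 0.53 and adjusted p-values of 0.654 or more (limma). Without Usp8, described below, the upper end was 0.28. Of these, Usp25, a relative of Usp28, was the 1 whose groups did not overlap: it read 1.83, 1.87 and 1.91 on the KO arrays, against 1.75, 1.61 and 1.78 on the WT arrays, a difference of 0.16 ± 0.15, and its dimmer probe gave -0.09. Some members share a target with Usp10. Usp7, which acts on p53 and Mdm2, differed by 0.16 ± 0.21, and Usp13, which like Usp10 acts on Beclin 1 complexes, by -0.30 ± 0.25. The dimmer Usp13 probe gave -0.01 ± 0.22. The members that bind Wdr48 for activity were Usp1 (0.20 ± 0.20), Usp12 (0.21 ± 0.18) and Usp46 (-0.19 ± 0.21). No pair of groups among these 3 was free of overlap. Usp14, which trims ubiquitin chains at the proteasome, differed by 0.20 ± 0.18, and Usp22, the histone protease of the SAGA complex, by -0.22 ± 0.21. Of the histone H2A proteases, Usp3 read 2.24, 2.14 and 2.12 on the KO arrays, against 2.09, 2.10 and 2.16 on the WT arrays, a narrow range with a difference of 0.05 ± 0.15. Usp16 differed by -0.08 ± 0.18, and its dimmer probe by 0.28 ± 0.20.

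Usp20 and Usp33 are close relatives that act on adrenergic receptors. Usp20 read 0.57, 1.00 and 1.32 on the KO arrays, against 1.08, 0.70 and 0.26 on the WT arrays, spread widely in both groups, with a difference of 0.28 ± 0.28. Usp33 read 2.85, 2.85 and 2.49 on the KO arrays, against 2.37, 2.81 and 2.31 on the WT arrays. KO3 was the lowest KO array and WT2 reached the KO range, and the difference was 0.23 ± 0.21. Usp47, a relative of Usp7 that acts on DNA polymerase beta, read -2.42, -2.13 and -2.53 on the KO arrays, against -2.90, -2.63 and -2.22 on the WT arrays, with overlapping groups and a difference of 0.22 ± 0.22. Usp24 differed by 0.23 ± 0.23, with KO2 the highest of the 6 arrays. Of members that act in the cell cycle or the nucleus, Usp37, a protease of cyclin A, differed by 0.13 ± 0.24, Usp36, a nucleolar protease, by -0.08 ± 0.21, and Usp42, which acts on p53, by -0.08 ± 0.16. The KO and WT arrays overlapped in all 3. Usp1, which acts on Fanconi anaemia proteins and PCNA, read 2.95, 2.45 and 2.84 on the KO arrays, against 2.66, 2.64 and 2.32 on the WT arrays; KO2 lay within the WT range. Usp12 was steady over the KO arrays and less so over the WT arrays. It read 2.95, 2.99 and 2.95 on the KO arrays, against 2.71, 3.02 and 2.54 on the WT arrays, and WT2 was the highest of the 6. Usp19, anchored in the endoplasmic reticulum membrane, was likewise steadier over the KO arrays, at a difference of -0.12 ± 0.19: its SD was 0.03 in KO kidneys and 0.29 in WT kidneys (n = 3 each). Usp38 (-0.20 ± 0.18), Usp40 (0.07 ± 0.17) and Usp43 (0.11 ± 0.22) had overlapping groups. Usp35, not well above background on KO1 and KO3, had a fitted difference of -0.20 ± 0.22, which depends on those 2 dim arrays.

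Among members above background on all 6 arrays, 5 had the difference nearest 0. Usp5, which breaks down free ubiquitin chains, read 2.70, 2.57 and 2.78 on the KO arrays, against 2.62, 2.78 and 2.55 on the WT arrays. Its difference was 0.03 ± 0.16 and the 95% confidence interval -0.34 to 0.41. Usp4, a relative of Usp11 and Usp15, read 2.05, 2.22 and 2.33 on the KO arrays, against 2.42, 2.17 and 2.02 on the WT arrays, and its interval was -0.43 to 0.41 around a difference of -0.01 ± 0.18. Usp45 had a difference of -0.01 ± 0.16 with an interval of -0.38 to 0.37. These 3 genes had overlapping groups. The interval of Usp4 holds the difference of Usp21 and Usp34 (-0.41 each). Those of Usp5 and Usp45 end short of it but leave room for changes nearly as large. For Usp28 (0.01 ± 0.27, interval -0.61 to 0.64) and Usp54 (0.05 ± 0.50, interval -1.12 to 1.21) the intervals were wider, and both differed by scan.

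Some members followed the scan more than the genotype. In a test of scan 2 against scan 1, added after the values had been seen, 3 of 41 members were called (7.32%), against 9.42% of all genes. Usp8, which deubiquitinates receptors on endosomes, read 3.43, 4.79 and 0.49 on the KO arrays, against -0.06, 3.76 and 3.40 on the WT arrays. Both arrays of scan 2, KO3 and WT1, were low and the other 4 high. The means were 0.22 in scan 2 and 3.84 in scan 1, a difference of -3.63 ± 0.36 or 12.4-fold lower in scan 2 (adjusted p = 0.00455, limma). The KO minus WT difference was 0.53 ± 1.30 over all arrays, 0.52 within scan 1 and 0.55 within scan 2. Usp54 had the opposite order. It read -3.97, -3.89 and -2.52 on the KO arrays, against -2.64, -4.14 and -3.75 on the WT arrays, with the 2 arrays of scan 2 higher by 1.35 ± 0.16 (adjusted p = 0.00711, limma). Usp28, a protease of Myc, read 1.34, 1.09 and 0.65 on the KO arrays, against 0.55, 1.27 and 1.21 on the WT arrays, and scan 2 was lower, at -0.63 ± 0.15 (adjusted p = 0.0466, limma). Probes of 1 gene could differ in this: scan 2 minus scan 1 was 0.32 for the brighter Usp7 probe and -1.16 for the dimmer one, and -0.19 and 0.87 for those of Usp24. A scan difference of at least 1 was found for 2 members and for 5.89% of all genes. The KO minus WT difference had the same sign in both scans for 36 of 41 members. The share over all genes was not counted, and scan 2 holds 1 array of each genotype. The count therefore cannot be read as a trait of the family.

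**Figure D3:**
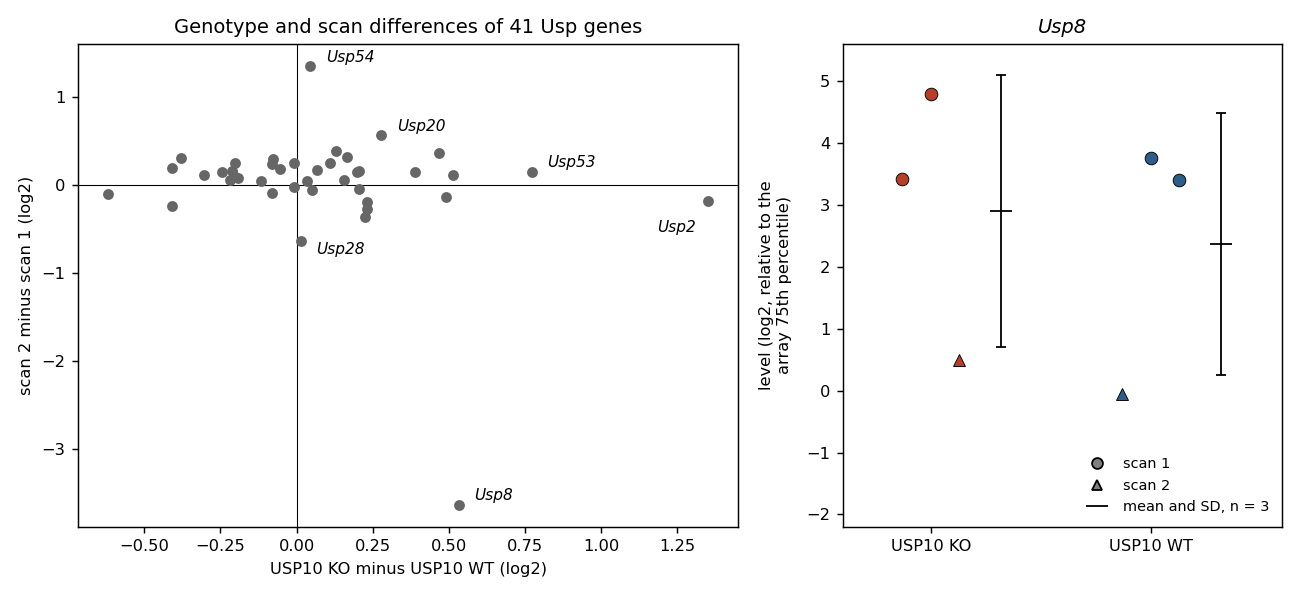
Left, the KO minus WT difference (horizontal, log2) against the scan 2 minus scan 1 difference (vertical, log2) of the 41 tested Usp genes; right, Usp8 on each array with circles for scan 1, triangles for scan 2, and the mean and SD of 3 arrays. Usp8 lies at -3.63 by scan and 0.53 by genotype, and Usp54 at 1.35 by scan and 0.05 by genotype, while Usp2 lies at 1.35 by genotype and near 0 by scan.

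Where a member had several probes, they did not always run the same way. Of the 69 probes of the family 58 passed the filter on dim probes, and of 14 members with more than 1 such probe 6 had 1 sign throughout and 8 had both signs. For Usp14 the brighter probe gave 0.20, while the dimmer one read -3.08, -3.17 and -3.08 on the KO arrays, against -2.49, -2.96 and -2.10 on the WT arrays. These groups did not overlap, and the difference of the dimmer probe was -0.59 ± 0.23. Usp48 had 4 probes, with -0.21 for the brightest and -0.43, -0.30 and 0.02 for the others. All 3 probes of Usp31 were negative, at -0.24, -0.14 and -0.19. The second probe of Usp3 (-0.16) was fitted on 5 arrays, since its spot on KO3 was flagged as an outlier. Usp2 and Usp53 had 1 probe each, so no second probe bears on their values.

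The 6 members that did not enter the test were dim. Usp26, Usp27x, Usp44, Usp49 and Usp50 were above background on no array. Usp29, an imprinted gene, was above background on KO1, WT2 and WT3. Of the tested members 40 were above background on all 6 arrays, and Usp35 was so on 1 KO array and all 3 WT arrays. With Usp26 and Usp27x not measured, 3 X-linked members were left. Usp9x, which acts on signalling and polarity proteins, read -1.55, -1.45 and -1.34 on the KO arrays, against -1.25, -1.58 and -1.35 on the WT arrays, a difference of -0.05 ± 0.17 with overlapping groups. WT1 and WT2, the arrays with Xist signal, were the highest and the lowest of the 6.

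Other genes of the ubiquitin system were read from lists. Of 34 tested deubiquitinases of other families, 23 were higher and 11 lower in KO kidneys with a median of 0.14, which was 0.0900 with quantile normalisation and 0.0554 with normexp and quantile normalisation. At an unadjusted p of 0.05 (limma), 5 were higher and 2 lower, and none passed the adjusted threshold. Among all genes tested 53.3% were positive, and 6.16% were higher and 4.24% lower at that unadjusted p. These are the shares to set beside each list here. Tnfaip3 (A20), which restrains NF-kappaB signalling, read 0.02, 0.72 and 0.66 on the KO arrays, against -0.18, -0.32 and -0.65 on the WT arrays, without overlap (0.85 ± 0.24, adjusted p = 0.374, limma). Otud7a (0.84 ± 0.16), Zup1 (0.64 ± 0.21), a protease of long ubiquitin chains, and Otud3 (0.54 ± 0.17) were the other 3 with the smallest p. Otud7a was dim, at -5.59, -5.54 and -5.82 on the WT arrays. It was above background on 5 arrays, not on WT1, so it entered the test through the KO arrays, where it was higher. Mindy4 was above background on no array and is named for that reason. The 11 USP partner genes, which encode cofactors and scaffolds of these enzymes, had a median of -0.18 with 4 higher and 7 lower (0.0150 with normexp and the 75th percentile), and none passed even the unadjusted threshold. G3bp2, a partner of Usp10, differed by -0.41 ± 0.18 and Gmps, a partner of Usp7, by -0.31 ± 0.17. Of 22 genes for ubiquitin and for the E1 and E2 enzymes that load it, 13 were higher and 9 lower with a median of 0.11, which was -0.11 with quantile normalisation. In the reported scaling 1 higher and 2 lower passed the unadjusted threshold: Ube2g1 (0.46 ± 0.18), Ube2d1 (-0.58 ± 0.19) and Ube2c (-0.72 ± 0.26), the E2 of the anaphase-promoting complex. Over the same arrays the median of the Usp family was 0.05 and that of all genes 0.03.

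**Figure D4:**
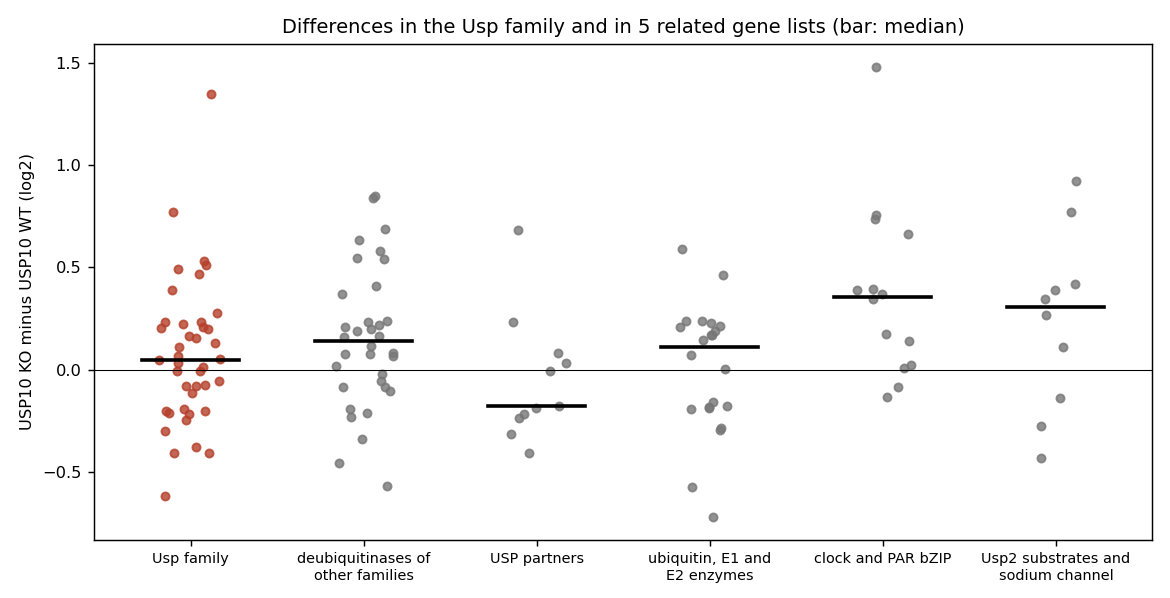
KO minus WT difference (log2) of each tested gene in the Usp family and in 5 related lists, with a bar for the median of each list. The medians are 0.05 for the Usp family, 0.14 for other deubiquitinases, -0.18 for USP partners, 0.11 for ubiquitin, E1 and E2 genes, 0.36 for clock and PAR bZIP genes and 0.31 for Usp2 substrates and sodium channel genes, and those of the Usp family, the USP partners and the ubiquitin, E1 and E2 genes change sign under at least 1 other scaling.

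Genes linked to Usp2 by function were then set beside it. The clock and PAR bZIP list holds genes whose transcripts, like that of Usp2, cycle over the day, and 14 of its 18 genes were tested: 12 were higher and 2 lower in KO kidneys, with a median of 0.36. Scaling on the array median gave 10 higher and 4 lower, and normexp with quantile normalisation a median of 0.19. At an unadjusted p of 0.05 (limma), 5 were higher and none lower, and none passed the adjusted threshold. Among all genes tested 53.3% were positive, and 6.16% were higher and 4.24% lower at that unadjusted p. Per1, a repressor of the clock that also answers to glucocorticoids, read 2.50, 2.76 and 3.02 on the KO arrays, against 1.57, 0.70 and 1.56 on the WT arrays. The KO kidneys were all higher, by 1.48 ± 0.28 (adjusted p = 0.168, limma). Nfil3, a repressor at D-boxes, differed by 0.74 ± 0.17, Cry2 by 0.76 ± 0.31 and Tef, an activator at D-boxes, by 0.66 ± 0.19. Dbp, the relative of Tef, differed by 0.00799 and Cry1 by 0.0210. Dbp and Cry1 were picked after their values had been seen, as the members nearest 0. The sources used here do not give the clock hour of collection.

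Of the 10 genes for Usp2 substrates and for the sodium channel and its regulators, 7 were higher and 3 lower (median 0.31). With normexp at the reported scaling all 10 were higher (median 0.25). The unadjusted threshold was passed by 1 of the 10, where 10.4% of all genes passed it, and the adjusted one by none. Sgk1, the kinase that inhibits Nedd4-2 and is induced by corticosteroids, read 4.23, 5.01 and 4.65 on the KO arrays, against 3.96, 3.54 and 4.08 on the WT arrays, without overlap (0.77 ± 0.25, adjusted p = 0.414, limma). Scnn1a, the alpha subunit of the channel, read -0.02, 1.77 and 1.39 on the KO arrays, against 0.46, 0.18 and -0.26 on the WT arrays. KO1 lay among the WT arrays, and the difference was 0.92 ± 0.45. Nedd4l, which encodes Nedd4-2, differed by 0.42 ± 0.20, and Trp53 by -0.43 ± 0.22, a sign that reversed with normexp at the reported scaling.

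Markers of cell types were read on the same arrays, and their part in the Usp2 difference was not tested. Among all genes, 6.16% were higher and 4.24% lower at an unadjusted p of 0.05 (limma), the shares to set beside the counts below. Of the 7 macrophage markers with a probe, all 7 were above background on all 6 arrays and 6 were lower in KO kidneys with a median of -0.77, 4 of them at an unadjusted p of 0.05. The median was -0.42 with normexp at the reported scaling and -0.50 with normexp and quantile normalisation, and with scan as a block 1 of the 7, Cx3cr1 (-1.58 ± 0.21), passed the adjusted threshold (adjusted p = 0.0349, limma). Their summed linear level, in units of the 75th percentile, was 5.07 to 5.38 on the KO arrays and 5.89 to 6.96 on the WT arrays. Such sums weigh bright probes most: Csf1r, whose groups overlapped, made up 3.84 to 4.48 on the KO arrays and 3.91 to 4.99 on the WT arrays, and the sum of the other 6 was 0.895 to 1.37 on the KO arrays and 1.97 to 2.03 on the WT arrays. All 5 urothelial markers were higher in KO kidneys with a median of 0.67, 4 of them at an unadjusted p of 0.05, and the sum was 6.49 to 9.48 on the KO arrays and 4.17 to 5.31 on the WT arrays. Without the brightest, Upk1a, it was 3.12 to 4.87 on the KO arrays and 1.90 to 2.85 on the WT arrays. The macrophage and urothelial sums did not overlap between the groups, with or without the brightest gene. Of 5 adrenal cortex markers, Cyp11a1 and Cyp11b2 were above background on no array, and 2 were tested: Hsd3b1 differed by 1.78 ± 0.28 (adjusted p = 0.0949, limma) and Cyp11b1 by -0.61 ± 0.34 (adjusted p = 0.534). Cyp11b1 was dim, above background on 4 of the 6 arrays, and with normexp at the reported scaling both tested genes were higher. Liver markers summed to 21.6 to 23.9 on the KO arrays and 15.2 to 20.2 on the WT arrays, without overlap. Yet 2 of the 3 genes were lower, and Afp, the 1 higher gene (0.41 ± 0.20), made up most of each sum. Without Afp the sum was 0.899 to 1.49 on the KO arrays and 1.32 to 2.79 on the WT arrays, with overlap. The 1 tested brown fat marker, Cidea, differed by -0.59 ± 0.20 (0.21 with normexp at the reported scaling). Ucp1 was above background on no array. The median was -0.48 for 4 nephron progenitor markers, 1 higher and 3 lower, among them Cited1 (-0.68 ± 0.20). With normexp at the reported scaling it was -0.26, with 2 higher and 2 lower. The brightest progenitor marker, Eya1, had a linear level of 4.45 to 10.1 on the KO arrays and 2.26 to 6.57 on the WT arrays. For 4 endothelial markers the median was -0.27, with 1 higher and 3 lower, among them Cdh5 (-0.54 ± 0.18) and Kdr (0.06 ± 0.28). Podocyte and proximal tubule sums overlapped between the groups, at 15.3 to 30.9 on the KO arrays and 20.2 to 29.3 on the WT arrays for podocytes and 75.3 to 92.2 on the KO arrays and 74.5 to 82.4 on the WT arrays for proximal tubule. Of 5 podocyte markers 1 was higher and 4 lower (median -0.34), none past the unadjusted threshold. Of 5 proximal tubule markers 2 were higher, 1 of them past that threshold, and 3 lower (median -0.08). Of 3 collecting duct markers, Aqp2 differed by 0.55 ± 0.27 (adjusted p = 0.511, limma) and Aqp3 by 0.33 ± 0.27 (adjusted p = 0.656). Hsd11b2 was too dim to be tested. Both tested genes had overlapping groups, with KO1 the lowest KO array, as in Scnn1a. Their part in the differences of the sodium channel genes was not tested.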

How the data were processed

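Kidney RNA of 6 neonates, made into Cy3-labelled cRNA per the labels' protocols, was read on 1 Agilent mouse array each. The files are Agilent Feature Extraction output; their headers name version 11.0.1.1, the submitters' processing notes 9.1. The authors deposited, per the file headers, a linear intensity for each spot with background already subtracted and no scaling between arrays.

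Of 44397 spots on an array, 1377 were controls and were dropped, as were outlier-flagged spots. The deposited intensity was put on a log2 scale, the array's 75th percentile was subtracted, and replicate spots were averaged. Accessions named 27234 of 39429 probes through a RefSeq table of GRCm38.p6, which also gave the promoters. The array design is of build mm9, so no array coordinate was used. Probes had to be well above background, at every spot, on each array of KO or of WT; a gene was read from its brightest such probe, giving 21203 genes.

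Groups came from the labels. All genes were fitted together in limma 3.58.1 (R 4.3.3; lmFit, then eBayes) with no block, and p-values are two-sided and adjusted after Benjamini-Hochberg, with 0.05 as threshold. The fit was tested on simulated data. Precision is limited by having 3 arrays in each group. The p-values measure the spread between arrays of a group, which without a block holds differences between neonates and between scans together. Alternatives were other scalings, normexp background correction with an offset of 50, other filters and probe rules, a variance trend with robust fitting, weights for arrays, replicate and scan blocks, and leaving out each array. The members and gene lists were chosen with earlier results of these data known. Every member could be named, with Usp2, the 10 members with the smallest p and the 5 nearest 0 in full. Of each other list up to 4 genes with the smallest p were named, besides Dbp, Cry1, Mindy4, Csf1r and Upk1a, named after their values were seen, and markers above background on no array. Usp17l genes fall outside the naming rule.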

Additional observations from a re-analysis of the deposited data

How the results depend on the processing

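The count of members called was 0 in the reported fit. It was 1, Usp2 each time, with normexp and the 75th percentile, with an intensity trend and robust variance, with scan as a block, with both of these together (added after seeing the data), and at an adjusted p of 0.1, which 0.382% of all genes passed. It was 5 at an unadjusted p of 0.05. In the settings that put Usp2 past the adjusted p of 0.05, 4 of 20 with more than 1 array in each group, its difference was 1.23 with normexp and 1.35 in the other 3, and its adjusted p was 0.0168 to 0.0498 (limma). Over these 20 the difference ranged from 1.19 to 1.49 and the adjusted p from 0.0168 to 0.340, and leaving out 1 array gave differences of 1.25 to 1.49. The median difference of the members was 0.05. It was -0.0147 with quantile normalisation, -0.0306 with normexp and quantile normalisation, 0.0910 with normexp and the 75th percentile, and -0.0185 to 0.0665 when 1 array was left out. With a replicate block, Usp2 kept a difference of 1.35 with an adjusted p of 0.244, and no gene was called (1609 at an unadjusted p of 0.05). Deviations of same-numbered arrays from their group means correlated at -0.397, 0.480 and -0.601. Those of KO3 and WT1, the arrays of scan 2, correlated at 0.887. The deviations thus follow scan, and these values cannot decide whether the numbers pair the samples. None of 799 alternative values of the other members passed (limma; lowest adjusted p 0.0795). The sign changed under at least 1 setting for 19 of those 40 members and for none of the 10 with the smallest p. Those 10 were picked by p on the same arrays, so their steady sign follows largely from the choice. The share of sign changes over all genes was not counted. Of all genes, 17 were called in the reported fit, 27 after normexp scaled on that percentile, 45 with the trend, 36 with array weights, 62 with scan as a block and 119 with scan and trend. Averaging the probes of each gene gave 8 and the stricter filter 1, and 0 were called with normexp and quantile, without a filter, and without WT2 under a scan block. It was 0 to 30 when 1 array was left out, 30 without KO3 and 0 otherwise. The median of all genes was 0.03 as reported and 0.14 with normexp and the 75th percentile. Dim probes, Usp35 and the 6 untested members above all, limit what can be read at the low end.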
